A study of Mus musculus with 28 samples.

Results

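Kap1, also named Trim28, was silenced in TET TKO mouse embryonic stem cells, which carry knockouts of Tet1, Tet2 and Tet3, and the genes that changed are described by pathway and cell identity. The comparison sets 2 libraries with a short hairpin against Kap1 (shKap1) beside 2 libraries with the empty vector (shEmpty), which are 4 of the 16 RNA libraries and of the 28 samples of all kinds. According to the labels every line is J1, of strain 129S4/SvJae, and all cells were naive, grown without feeder cells on gelatin in N2B27 medium with LIF and inhibitors of MEK and GSK3. Hairpins came on lentivirus, the cells were selected with puromycin, and RNA was taken on day 5. The methods state that the TET TKO cells were obtained from another laboratory, so the missing enzymes and the line cannot be told apart in any comparison with WT cells (3 shEmpty and 3 shKap1 libraries, with the Tet genes intact and otherwise treated alike). DNMT TKO cells, with knockouts of Dnmt1, Dnmt3a and Dnmt3b, also entered the fit (3 shEmpty and 3 shKap1 libraries). They too came from another laboratory, so line and genotype cannot be told apart there either. The replicates are described as independent experiments.

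KAP1 is a corepressor without DNA contacts of its own. KRAB zinc finger proteins bring it to transposons and imprinting control regions, and there it gathers SETDB1, which places the repressive mark H3K9me3. TET enzymes oxidise methylated cytosine to 5-hydroxymethylcytosine, a step by which DNA methylation can be removed. A small fraction of ES cells in culture passes through a state that resembles the 2-cell embryo, in which LTRs of the retrovirus MERVL, called MT2_Mm, act as promoters and the factor DUX switches them on.

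Reads on genes numbered 29373696 and 28039025 in shEmpty replicates 1 and 2, and 21387129 and 19337417 in shKap1 replicates 1 and 2. Levels are given as CPM, that is reads scaled to a common total over all genes, scaled with TMM factors, always in the order replicate 1, replicate 2. A gene entered the test with at least 16 reads over the 16 RNA libraries, which 20321 genes had, and was called when edgeR's quasi-likelihood test gave a Benjamini-Hochberg adjusted p below 0.05 together with a change of at least 2-fold. Changes are log2 fold changes of shKap1 over shEmpty. The shKap1 libraries were alike, with a chi-square per gene of 1.677 between them, while the shEmpty libraries differed by 45.56 per gene, the largest value of any replicate pair (the others ran from 1.814 to 15.32). Much of that gap sat in few transcripts of shEmpty replicate 2. Lars2, a mitochondrial leucyl-tRNA synthetase, read 436 and 10709 CPM in shEmpty and 486 and 515 in shKap1, and the ribosomal RNA mt-Rnr2 read 446 and 2720.0 and 403 and 459. Both were called down with overlapping groups. They stay in the totals and are not described further. The totals and the counts of the gene lists were repeated without it, and the larger moves are given beside the main value. Counts by chromosome, read number, repeat family or chromatin region were not.

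The target itself, Trim28 (chr7:13609501-13616384), read 1772 and 1899 CPM in shEmpty and 163 and 168 CPM in shKap1. Both knockdown libraries lay far below both controls, and the fall was -3.47 (SE 0.195, edgeR adjusted p = 3.6e-08), against -3.41 in WT cells. The difference between these falls was -0.06 (edgeR adjusted p = 0.93). The hairpin matches the mm9 genome once without mismatch, on the + strand at chr7:13615908-13615928, in coding sequence of exon 16 of the transcript Trim28-001. All 21 bases are in capitals as the matched part:
Trim28 hairpin target: CCGCATGTTCAAACAGTTCAA

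Tet1, Tet2 and Tet3 still gave reads in TET TKO cells. The counts are over whole genes, and where in a gene these reads lay was not tested. Tet1 read 219 and 247 CPM in shEmpty and 245 and 239 in shKap1, against 605 to 749 in the WT shEmpty libraries. Tet2 read 92.1 and 90.1 and 76.4 and 71.8, against 333 to 453 in WT. Tet3, at 13.3 and 14.2 and 21 and 17.8, lay within reach of the WT level of 10.7 to 15.9. Without knockdown the log2 difference of TET TKO from WT was -1.49 for Tet1, -2.16 for Tet2 and -0.03 for Tet3.

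Among genes that changed at least 2-fold on silencing Kap1 without TET enzymes, rises outnumbered falls and started mostly from low levels. Of the 20321 genes tested, 1635 were called up (8.05%) and 907 down (4.46%), and these shares are the background against which every gene group is read. With no threshold on the fold, 3108 were up and 3070 down, nearly equal numbers. At 4-fold, 1028 were up and 317 down, and at 16-fold 535 and 65. All 1635 risen genes had both shKap1 libraries above both shEmpty libraries, and 891 of the 907 fallen ones had them below. The other 16 overlapped and included Lars2, mt-Rnr2 and several replication-dependent histone genes such as Hist1h1e. Length-corrected levels (RPKM) show where the called genes stood: those that rose went from a median of 0.154 to 1.35, those that fell from 1.22 to 0.347, and uncalled genes were at 3.89 and 3.86. In shEmpty 77.1% of the risen genes were below 1 RPKM, and 534 of them crossed that level. From no read in shEmpty rose 212 genes, and 48 fell to no read in shKap1. Most calls came from genes with at least 50 reads over the 4 libraries. Of 15134 such genes 1142 were up (7.55%) and 749 down (4.95%). Among them calls were more frequent below 200 reads, where 443 of 2608 genes were up (17%) and 265 down (10.2%). At 200 reads or more, 699 of 12526 genes were up (5.58%) and 484 down (3.86%). The median change over all tested genes was -0.01. For list counts given for WT cells the background is larger, with 2200 of the same 20321 genes called up and 1329 down.

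**Figure D1:**
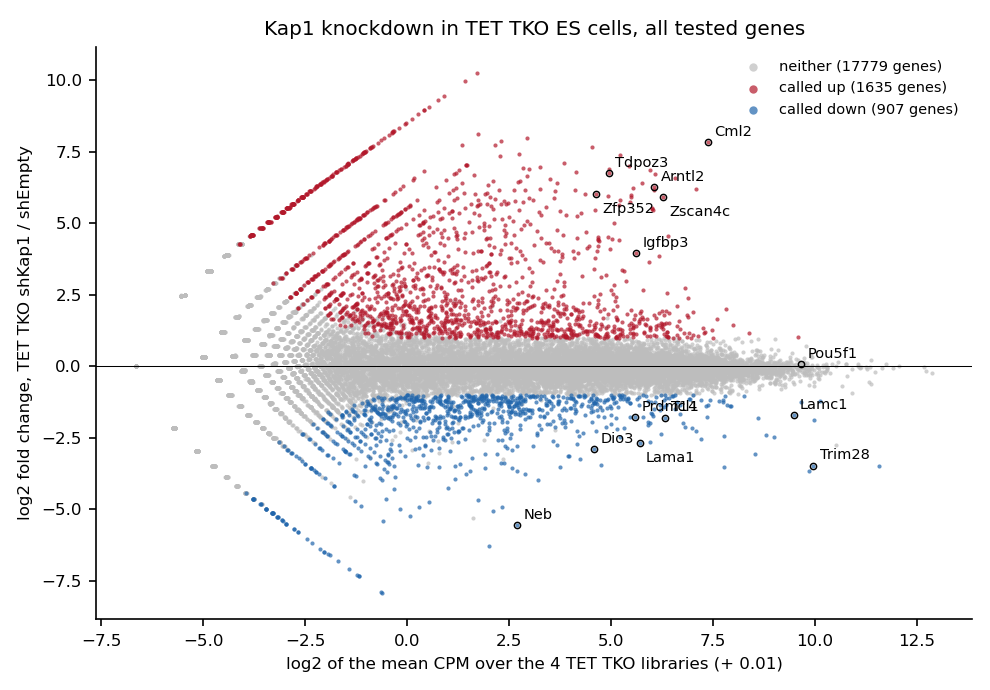
Log2 fold change of shKap1 over shEmpty in TET TKO cells (vertical) against the log2 of the mean CPM of the 4 libraries (horizontal) for the 20321 tested genes, with the 1635 genes called up in red, the 907 called down in blue, the uncalled in grey and some named genes labelled. The straight rows of points at the left are genes with few or no reads in a group. Large rises lie at low and middle levels, while Trim28 is the labelled fall at the highest level.

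The largest rises were of genes that were silent or nearly so. Cml2, which codes for an N-acetyltransferase-like protein, read 1.23 and 1.69 CPM in shEmpty and 342 and 320.4 in shKap1 (7.82, SE 0.352, edgeR adjusted p = 8.7e-09). Its groups were far apart, and the WT change was much the same at 7.71. Mmp10, a secreted metalloprotease, went from 0 and 0.0376 to 7.27 and 5.95 CPM. The predicted gene Gm8711 had no read in shEmpty and 6.44 and 6.57 CPM in shKap1, a rise of at least 119-fold taking 3 reads over both shEmpty libraries as the floor. A630077J23Rik, also without a read before, rose at least 97.7-fold to 5.97 and 4.62 CPM. Gm1110 rose by 7.99, Olfr754-ps1, an olfactory receptor pseudogene, by 7.88 and Gm20429, which overlaps it, by 7.74, so the reads of this last pair cannot be told apart with certainty. ENSMUSG00000093513 and ENSMUSG00000093420, neighbours on chromosome 7, rose by 7.75 and 7.40. With single libraries left out the first of these ran from 6.98 to 9.87.

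The largest falls began with a noncoding RNA. The lincRNA C330046G13Rik dropped from 7.19 and 8.56 CPM to 0.185 and 0, and Neb, the giant muscle protein nebulin, from 11.6 and 13.9 to 0.232 and 0.308 (-5.54, SE 0.316, edgeR adjusted p = 7.3e-10). In both genes each shKap1 library was near 0. Calb2, the calcium buffer calretinin of neurons, read 9.27 and 10.1 CPM and then 0.324 and 0.308 (-4.92). Cd200, a surface ligand that restrains myeloid cells, read 8.85 and 7.74 and 0.278 and 0.205 (-5.06). Lesser falls among the first 10 were those of Dclk3 (-4.69), the troponin gene Tnni1 (-4.26), the nicotinic receptor subunit Chrna4 (-3.96), the kinase Prkg2 (-3.95), the transporter Slco4c1 (-3.78) and the citrate carrier Slc13a5 (-3.77).

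Genes of the 2-cell stage rose together. Of 28 tested members of a 38-gene list, 27 were called up (background 8.05%) and none down, and the median change was 5.35. Their summed level went from 43.4 and 39.1 CPM in shEmpty to 1375 and 1331 in shKap1. The exception, Zfp750, changed by -0.11 and was not called, and the smallest rise was that of Sp110, at 2.95. Leaving out shEmpty replicate 2 left 26 called up. Copies of the Zscan4, Tdpoz, Usp17 (Dub) and several Gm families are nearly identical, and only reads placed with a mapping quality of at least 10 were counted, so the split among copies is uncertain.

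Dux, the transcription factor that opens this program, read 0.176 and 0.113 CPM in shEmpty and 8.57 and 8.93 in shKap1. Its shKap1 libraries stood clear of the controls, and the rise was 5.86 (SE 0.484, edgeR adjusted p = 6.4e-08). Zscan4c, of a family that marks 2-cell-like cells and is tied to telomere upkeep, read 2.61 and 2.40 and 157 and 147 (5.92, SE 0.572, edgeR adjusted p = 1.3e-05). Zscan4b, of the same cluster on chromosome 7, read 0.811 and 0.526 and 91.1 and 82.2 (7.00, SE 0.397, edgeR adjusted p = 1.7e-08). Each of the 5 measured Zscan4 copies rose by between 5.65 (Zscan4f) and 7.00 (Zscan4b), Zscan4d reaching 271 and 267 CPM.

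Tdpoz3, a BTB and MATH domain gene of early embryos, went from 0.740 and 0.376 to 60.9 and 61.8 CPM (6.76, SE 0.296, edgeR adjusted p = 3.2e-11). Zfp352, a zinc finger gene of the same stage, went from 0.599 and 0.901 to 48.6 and 48.7 (6.02, SE 0.450, edgeR adjusted p = 1.8e-07). The deubiquitinase copy Dub1 went from 3.10 and 1.95 to 60.8 and 55.1 (4.51). In all of these the shKap1 libraries agreed closely with each other. Gm6763 behaved differently, with no read in shEmpty but 1.02 and 4.31 CPM in shKap1, a rise of at least 47.3-fold whose replicates lay well apart. As bulk RNA cannot tell more cells of a kind from more RNA per cell, these levels do not say how many cells took part.

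The rise was larger than in WT cells for part of the list. In WT 26 of the 28 were called up as well, with a median change of 2.88. The list was chosen with earlier results of these data known. It holds Dux, Iqcf1 and Lrrn4, which the paper reported as higher in TET TKO cells on Kap1 knockdown. The share of differences below is thus partly built into the list. A test of the difference between genotypes called 11 of the 28 more strongly risen in TET TKO (background 2.08%) and none less (background 2.13%): Zscan4b, Zscan4c, Zscan4d, Zscan4e, Tdpoz3, Dub1, Dub2a, Zfp352, Gm4340, BB287469 and Lrrn4. Zfp352 had the largest difference of those named by rule, 3.11 (edgeR adjusted p = 0.0043), its WT libraries ranging over 1.06 to 1.66 CPM in shEmpty and 8.81 to 10.7 in shKap1. Dux itself differed by 1.96 (edgeR adjusted p = 0.11). When single libraries were left out the edgeR adjusted p of the difference rose as far as 0.14 for Zscan4c and 0.082 for Zscan4e. This count depended on the libraries used, since it was 5 without shEmpty replicate 2 of the TET TKO cells and 20 when the replicate number was added as a block within each genotype.

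Gene starts inside MT2_Mm rose nearly as often. The annotation places 31 tested gene starts (the outermost 5′ end of a gene) inside an MT2_Mm element of the same strand, from 1889 such elements in the authors' repeat track, in which neighbouring pieces of a repeat were merged. Of the 31, 25 were called up (background 8.05%), none down and 6 neither, and the median change was 3.88. The read filter counts the knockdown libraries, so a start silent in shEmpty could enter the test through its rise. Starts that stayed silent were left out, and their number was not counted. The share is thus partly set by the filter, as are those of the other repeat families below. Without shEmpty replicate 2, 22 were called up. Of the 25, 15 had at least 50 reads over the 4 libraries. The annotation holds 10 of the 31 as miRNA entries, such as mmu-mir-1194, that lie within the repeat, so reads of the repeat itself count toward them. Of these 10, 7 were called up, on 11 to 47 reads each. Of the other 21 starts 18 were up, with a median change of 3.50. The other LTR families with at least 6 tested starts were MT2B with 1 of 9 up, MT2A with 3 of 8, MT2C_Mm with 3 of 7, MTD with 0 of 7, and, each of 6, ORR1B1 with 4, ORR1B2 with 2, ORR1E with 1 and MTEa with 0. Smaller families also rose. Those with 3 tested starts ran from 3 up (IAPLTR1_Mm and RLTR10) to 0 up (MTB_Mm, ORR1A0, RLTR15, RLTR45 and RMER19A). Of 13 tested starts inside an IAP element of either strand 8 were called up and 0 down.

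The bases before these starts share a TATA-like stretch. The heptamer TATAAGG (searched on both strands, as CCTTATA on the other) lay within 300 bases before 20 of the 31 starts (64.5%), against 400 of 20320 tested genes (1.97%) and 47 of the 1610 risen genes outside MT2_Mm (2.92%). Of the 25 risen starts 18 held it (72%), and the 7 without it were the miRNA entries. All 31 starts lie in copies of the same repeat, so shared letters and the contrast with other genes follow from that choice. The heptamer lay before 20 of the 21 starts other than miRNA entries, called or not, and before 0 of the 10 miRNA entries. A match describes the letters and is no proof of use. The 150 bases before 7 of these starts are shown, in mm9 and on the gene's own strand, 5′ to 3′, with the heptamer in capitals. They were chosen after their values were seen, 5 risen genes with over 200 reads and then 2 genes at the foot of the list, Cdca7l and Aqr, that were not called although their letters are much alike:
B020004J07Rik (chr4:101516629-101516778, - strand): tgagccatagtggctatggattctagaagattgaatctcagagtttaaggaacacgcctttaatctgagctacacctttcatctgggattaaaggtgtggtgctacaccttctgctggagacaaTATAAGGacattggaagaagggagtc
Gm14742 (chrX:75048620-75048769, - strand): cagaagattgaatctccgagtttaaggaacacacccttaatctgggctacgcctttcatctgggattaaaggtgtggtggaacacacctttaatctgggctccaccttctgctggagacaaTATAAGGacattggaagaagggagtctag
Popdc3 (chr10:44897754-44897903, + strand): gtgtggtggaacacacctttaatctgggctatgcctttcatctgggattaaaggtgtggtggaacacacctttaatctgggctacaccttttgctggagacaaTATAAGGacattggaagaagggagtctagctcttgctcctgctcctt
Ddit4l (chr3:137284426-137284575, + strand): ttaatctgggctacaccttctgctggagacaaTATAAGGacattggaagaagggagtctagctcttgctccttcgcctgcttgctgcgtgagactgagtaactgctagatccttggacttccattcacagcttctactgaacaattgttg
Gm5665 (chr13:62828050-62828199, - strand): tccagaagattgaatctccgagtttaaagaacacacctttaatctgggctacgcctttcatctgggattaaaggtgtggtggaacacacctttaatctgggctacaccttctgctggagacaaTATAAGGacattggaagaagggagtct
Cdca7l (chr12:119042612-119042761, + strand): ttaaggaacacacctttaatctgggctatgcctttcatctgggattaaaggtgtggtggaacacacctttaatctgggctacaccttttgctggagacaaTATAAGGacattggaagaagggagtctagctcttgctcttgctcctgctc
Aqr (chr2:114012761-114012910, - strand): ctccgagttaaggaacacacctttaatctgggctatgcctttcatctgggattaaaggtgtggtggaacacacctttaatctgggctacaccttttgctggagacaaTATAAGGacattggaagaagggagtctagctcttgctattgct

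B020004J07Rik read 0.423 and 0.150 CPM in shEmpty and 26.3 and 24.4 in shKap1 (6.42, SE 0.513, edgeR adjusted p = 2.6e-07). Gm14742 read 0.211 and 0.150 and 8.89 and 10.4 (5.69), and this rise exceeded that in WT by 2.82 (edgeR adjusted p = 0.029). Popdc3, a membrane protein of striated muscle, read 1.80 and 1.92 and 27.6 and 24.4 (3.81). These 3 genes were near silence before and had no overlap between groups. Ddit4l, an inhibitor of mTOR signalling, started higher, at 8.95 and 8.37 CPM, and reached 41.4 and 44.3 (2.30). Gm5665 read 3.03 and 4.39 and 16.9 and 17.1 (2.20), while in WT it changed by 0.37, a difference of 1.83 (edgeR adjusted p = 6.4e-06). By contrast Cdca7l, a Myc partner, read 23.3 and 21.5 and 25.0 and 24.1 (0.13), and Aqr, a splicing helicase, 186 and 202 and 193 and 193 (-0.00). Neither was called, although the Cdca7l libraries of shKap1 both lay slightly above those of shEmpty. Counts cover whole genes, and both genes were already expressed in shEmpty. A rise of a few CPM from the MT2_Mm start could go unseen there, so the response of that start itself was not tested. Of the 31, 17 were called up in WT, with a median of 2.36. The difference to WT was called higher for 4 (background 2.08%) and lower for 1 (background 2.13%). With a replicate block those counts were 9 and 1, and without shEmpty replicate 2 they were 2 and 0. The largest difference of the 31, that of Gm12823 (6.02), was not among the calls. Its fitted change in WT was 0.

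**Figure D2:**
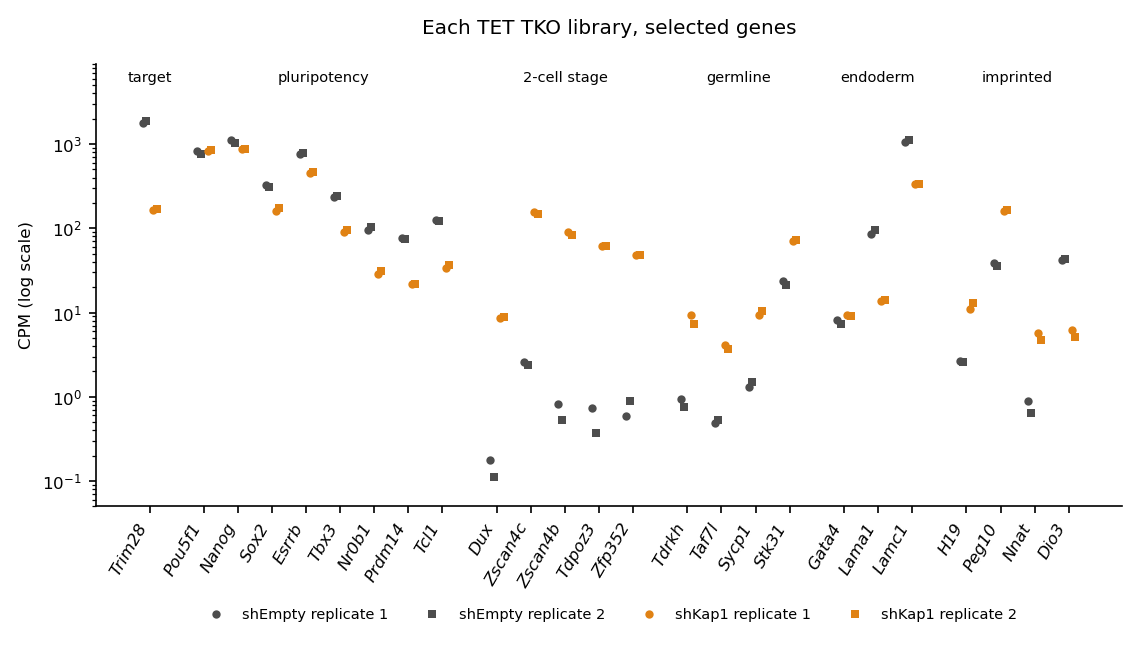
CPM on a log scale in each of the 4 TET TKO libraries for 25 genes, grey marking shEmpty and orange shKap1, circles replicate 1 and squares replicate 2, with genes grouped by role. The 2-cell genes lie more than 10-fold above their controls in both shKap1 libraries, Pou5f1 and Gata4 lie close to their controls, and Trim28, Tbx3, Nr0b1, Prdm14, Tcl1, Lama1, Lamc1 and Dio3 lie below.

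Germline genes also rose in a share well above the background. Of 33 tested genes 16 were called up (background 8.05%) and 1 down, with a median change of 1.2, and without shEmpty replicate 2 the counts were 15 and 0. Tdrkh, a Tudor protein of the piRNA pathway, read 0.952 and 0.751 CPM in shEmpty and 9.26 and 7.39 in shKap1 (3.28, SE 0.251, edgeR adjusted p = 2.7e-08). Taf7l, a testis subunit of TFIID, read 0.493 and 0.526 and 4.07 and 3.70 (2.92, edgeR adjusted p = 5.2e-07). Sycp1, of the synaptonemal complex that holds paired chromosomes, read 1.30 and 1.5 and 9.40 and 10.5 (2.82, edgeR adjusted p = 9.3e-07). In each of these the libraries of the groups did not overlap. Tex101, a sperm surface glycoprotein, rose by 2.69, and further rises were those of the piRNA factors Tdrd1 (2.51), Mov10l1 (1.95), Mael (1.51), Piwil2 (1.25) and Fkbp6 (1.24), of the bromodomain gene Brdt (1.98) and of Ddx4, the germ cell helicase VASA (11.6 and 10.3 to 41.7 and 42.6 CPM, 1.94). Magea5 fell by 1.16 on the log2 scale. Dazl, an RNA-binding protein of germ cells that was already expressed, read 47.6 and 43.0 and 50.7 and 52.1 and was not called (0.18).

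Germline genes also differed from WT. There 9 were called up and 4 down with a median of 0.18, and the test of the difference called 10 of 33 higher in TET TKO (background 2.08%) and none lower. Stk31, a kinase-like Tudor protein, was the clearest, with 24.0 and 21.2 CPM in shEmpty and 70.1 and 72.5 in shKap1, a change of 1.66 against 0.22 in WT (difference 1.43, edgeR adjusted p = 3.7e-06). Tex101 differed by 1.83, Taf7l by 1.77, Sycp1 by 1.47, Piwil2 by 1.22, Mov10l1 by 1.2 and Fkbp6 by 1.12. For Sycp3 (0.70 against -1.05), Hormad1 (-0.00 against -1.31) and Tdrd12 (-0.47 against -2.05) the TET TKO change was not called and the WT change was negative. The calls of Tex101 and Sycp1 were lost on leaving out single libraries, with an edgeR adjusted p of up to 0.16 and 0.11. Tdrkh gave no call of a difference (-0.25, edgeR adjusted p = 0.74). The count of 10 was 7 without shEmpty replicate 2 and 12 with a replicate block.

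Imprinted genes are silenced on the maternal or paternal copy, and KAP1 with ZFP57 guards their control regions. Of 46 tested, 11 were called up (background 8.05%) and 1 down, with a median change of 0.45. H19, a noncoding RNA of the maternal copy, read 2.64 and 2.55 CPM in shEmpty and 10.9 and 13 in shKap1 (2.20, SE 0.266, edgeR adjusted p = 5.3e-06). Igf2, the growth factor of the paternal copy beside it, read 26.0 and 24.9 and 85.6 and 80.8 (1.71), so both neighbours rose. Peg10, a paternal gene derived from a retrotransposon, read 39.2 and 35.9 and 158 and 163 (2.10, edgeR adjusted p = 0.0018). Each had separate groups.

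Nnat, a small membrane protein of neurons, read 0.881 and 0.638 and 5.69 and 4.77 (2.77, edgeR adjusted p = 2e-06) and rose more than in WT, where its change was 0.64 (difference 2.13, edgeR adjusted p = 0.0016). The WT libraries ran over 2.26 to 3.49 CPM in shEmpty and 4.10 to 5.45 in shKap1, so the genotypes differed before the knockdown and came to similar levels after it. Magel2 rose by 3.40 from 0.211 and 0.376 CPM, and Airn (2.02), Sgce (1.33), Ascl2 (1.27), Inpp5f (1.22), Ndn (1.13) and Mest (1.00) rose too. Igf2 rose less than in WT (difference -1.31, edgeR adjusted p = 0.03), the 1 imprinted gene called lower, and without shEmpty replicate 2 none was. Dio3, which inactivates thyroid hormone, went the other way, from 42.4 and 42.7 CPM in shEmpty to 6.25 and 5.18 in shKap1 (-2.89, SE 0.195, edgeR adjusted p = 6.2e-09), as it did in WT (-2.81). Meg3, in the same cluster on chromosome 12, read 133 and 144 and 206 and 187 and did not reach 2-fold (0.50). Without shEmpty replicate 2, 9 imprinted genes were up and 1 down, and in WT 16 were up and 3 down.

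Naive pluripotency genes had more calls down than up, and no core gene was called down. Of 20 tested naive genes 4 were called down (background 4.46%) and 1 up, with a median of -0.52. Tbx3, a T-box factor that supports self-renewal, read 237 and 241 CPM in shEmpty and 90.3 and 95.0 in shKap1 (-1.37, SE 0.0956, edgeR adjusted p = 8.7e-09). Prdm14, which keeps ES cells in the ground state, read 75.8 and 74.6 and 21.9 and 21.7 (-1.79, SE 0.168, edgeR adjusted p = 9.9e-07). Nr0b1, the nuclear receptor DAX1, read 96.5 and 104 and 28.9 and 31.1 (-1.74, SE 0.249, edgeR adjusted p = 0.00016). Both libraries of each group sat close together, with a clear gap between groups.

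Tcl1, a coactivator of AKT, read 127 and 120.5 CPM in shEmpty and 34.2 and 37.1 in shKap1 (-1.80, SE 0.183, edgeR adjusted p = 4e-06). Manba, a lysosomal mannosidase, was the gene called up (48.1 and 51.4 to 110.0 and 121 CPM, 1.22), a call that was lost without shEmpty replicate 2. Esrrb (762 and 780.4 to 455 and 469 CPM, -0.74, edgeR adjusted p = 3.8e-07), Klf4 (381 and 361 to 219 and 221, -0.75, edgeR adjusted p = 0.0052) and Zfp42 (159 and 154 to 114 and 110.0, -0.48, edgeR adjusted p = 0.00069) passed the test on p but not on fold. Nanog read 1106 and 1042 and 866 and 874 (-0.30, edgeR adjusted p = 0.074).

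Of the 12 core genes, Dppa2, a DNA-binding activator of early genes, was called up (53.9 and 48.7 to 156 and 148 CPM, 1.57) and none down, with a median of -0.03. Pou5f1 read 823 and 753 and 828 and 841 CPM (0.08, edgeR adjusted p = 0.47), and its libraries of both groups lay in nearly the same range. Sox2 dropped from 330.3 and 305 to 161 and 173, close to the 2-fold threshold (-0.93, edgeR adjusted p = 1.9e-06). In the formative list 3 of 15 genes were up (20%, background 8.05%) and none down. They were Sox3, a neural relative of Sox2 (1.23 and 0.901 to 9.86 and 8.67, 3.11), Sfrp2, a secreted Wnt antagonist (4.27 and 3.91 to 18 and 17.3, 2.11), and the DNA methyltransferase Dnmt3a (38.6 and 34.9 to 89.6 and 87.1, 1.26). Fgf5 had 5 reads over the 4 libraries and Otx2 changed by 0.28, so these formative markers were not called.

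In WT 8 naive genes and 3 core genes were called down. The difference to WT was called for Tcl1 (-4.54 in WT, difference 2.74, edgeR adjusted p = 3e-05), Nr0b1 (-3.16, 1.42, edgeR adjusted p = 0.017) and Prdm14 (-2.83, 1.04, edgeR adjusted p = 0.0079), 3 of 20 naive genes (background 2.08%), all in the direction of a smaller fall in TET TKO than in WT. In the DNMT TKO knockdown, set beside it with no test, Tcl1 changed by -1.38, Nr0b1 by -1.24 and Prdm14 by -0.57, values that are also smaller in size than those of WT. Tbx3 fell more in WT too (-2.04), with a difference of 0.67 (edgeR adjusted p = 0.0019) that stayed under 2-fold. Leaving out single libraries took the edgeR adjusted p for Nr0b1 up to 0.072 and the difference of Prdm14 down to 0.92, under 2-fold. The naive count was 2 without shEmpty replicate 2 and 4 with a replicate block.

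Markers of other lineages gave calls in both directions. Of 20 tested primitive endoderm genes 4 were called down (background 4.46%) and none up. Lama1, a laminin chain of basement membrane, read 85.2 and 95.1 CPM in shEmpty and 13.8 and 14.1 in shKap1 (-2.69, SE 0.137, edgeR adjusted p = 3.1e-10). Lamc1, its partner chain, read 1068 and 1118 and 335 and 337 (-1.70, edgeR adjusted p = 6.8e-07). Hnf4a, with 46 reads in shEmpty and none in shKap1, fell as well. The factors that define the lineage did not pass the test: Gata4 read 8.11 and 7.29 and 9.31 and 9.19 (0.26), Gata6 changed by -0.76 and Sox17 by 0.88.

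Among 20 mesoderm genes 3 were up and 3 down (15% each, background 8.05% up and 4.46% down). Snai1, a repressor of E-cadherin, rose from 5.46 and 5.75 to 20.4 and 20.2 CPM (1.86), Mesp2 by 3.2 and Snai2 by 1.61. With single libraries left out the rise of Mesp2 ran from 2.38 to 5.1. Gata2, a factor of blood and trophoblast, fell from 10.6 and 10.6 to 1.16 and 1.64 (-2.92, edgeR adjusted p = 5.5e-07), and fell more than in WT (-1.02, difference -1.90, edgeR adjusted p = 0.0026). Gsc (-1.81) and Mixl1 (-1.02) fell, while T, the brachyury factor, changed by -0.33. Of 12 neural genes Pax6 (0.564 and 0.601 to 3.06 and 3.34, 2.45) and Pax7 (1.79) rose (16.7%, background 8.05%).

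The trophoblast list had 7 of 20 up (35%, background 8.05%) and 2 down (10%, background 4.46%). Igfbp3, a binding protein of insulin-like growth factors, read 5.92 and 6.01 CPM in shEmpty and 91.8 and 93.2 in shKap1, groups that were widely separate (3.95, SE 0.148, edgeR adjusted p = 3.9e-12). Peg10, Ascl2, Gcm1, Fgfbp1, Krt7 and Cdh3 were the other rises, and Ets2 (-1.08) and Rhox6 (-1.21) the falls. Peg10 and Ascl2 were counted in the imprinted list too. Cdx2, which specifies the lineage, changed by 0.02, and Elf5 had 9 reads. Fgfbp1 and Krt7 were lost when a library was left out (edgeR adjusted p up to 0.07 and 0.054), and across all settings tried the trophoblast count ran from 3 to 7. Fibroblast markers, kept as a check for feeder cells, were scarce and lower in shKap1. Their summed level was 18 and 18.9 CPM in shEmpty and 10.9 and 10.9 in shKap1. Of the 10 tested, 4 were called down (background 4.46%), but 1 of 10 without shEmpty replicate 2. Of 8 haematopoietic markers 1 rose (12.5%, background 8.05%) and 2 fell (25%, background 4.46%). Itgam rose (1.49), and Kit (297 and 303 to 145 and 146, -1.04) and Cd34 (-1.43) fell. Without shEmpty replicate 2 none rose and 3 fell, and Itgam was lost whichever of the 4 libraries was left out (edgeR adjusted p up to 0.11).

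**Figure D3:**
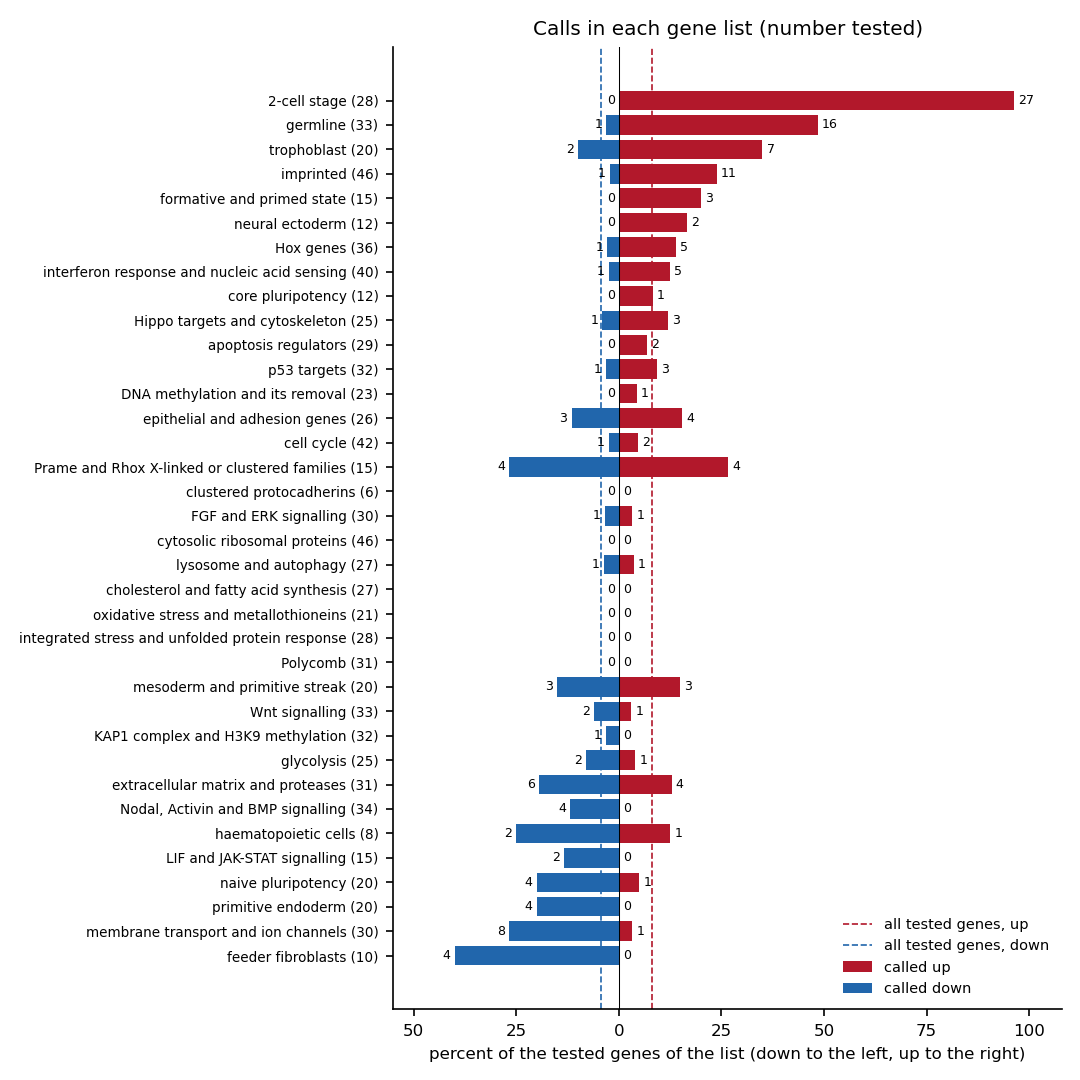
Share of the tested members of each gene list called up (bars to the right) or called down (bars to the left) in TET TKO cells, in percent, with dashed lines at the background of 8.05% and 4.46%. The 2-cell list reaches 96.4% and the germline list 48.5% up, and the longest bar to the left is the feeder list with 40%.

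Membrane transport genes fell in a share above the background. Of 30 tested genes 8 were called down (background 4.46%) and 1 up, and 7 were down without shEmpty replicate 2. Slc6a8, which imports creatine, read 346 and 352 CPM in shEmpty and 130.2 and 135 in shKap1 (-1.39, SE 0.0613, edgeR adjusted p = 2.6e-11). Trpm1, a cation channel of melanocytes and retina, read 31.6 and 30.8 and 4.54 and 4.88 (-2.73, edgeR adjusted p = 0.00026). In both genes the groups were clearly separate. The water channel Aqp3 (-1.66), Slc1a1, Abcb1a, Slc5a1 and Slc38a4 were among the others, Aqp3 being lost with any of the 4 libraries left out (edgeR adjusted p up to 0.13), and Slc27a2, a fatty acid carrier, rose (10.9 and 12.0 to 46.6 and 45.1, 2.00).

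Metabolic lists held few calls. In glycolysis 1 of 25 was up (4%, background 8.05%) and 2 were down (8%, background 4.46%), with none called without shEmpty replicate 2. Pdk1 (1.45), which inhibits pyruvate dehydrogenase, was up. The glucose carriers Slc2a3 (1593 and 1551 to 683 and 678 CPM, -1.21) and Slc2a1 (124 and 129 to 63.4 and 62.8, -1.01) were down. Slc2a3 and Pdk1 were lost without any of the 4 libraries (edgeR adjusted p up to 0.083 and 0.12), and Slc2a1 slipped to -0.96. In WT Slc2a1 changed by -0.01. Of 27 lysosome and autophagy genes Hexa, a lysosomal hexosaminidase, fell (136 and 142 to 49.8 and 49.6, -1.49) and Ctsk, a cysteine protease with 25 reads over the 4 libraries, rose (3.77). None of 27 cholesterol and fatty acid genes, 21 oxidative stress genes, 28 genes of the integrated stress and unfolded protein response and 46 ribosomal protein genes was called. The ribosomal list had a median of 0.07. Actb changed by 0.08 and Gapdh by -0.36, neither called.

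Extracellular matrix genes went both ways, 4 up (12.9%, background 8.05%) and 6 down (19.4%, background 4.46%) of 31, with a median of -0.43. Without shEmpty replicate 2 the counts were 4 and 4. Thbs1, a matricellular glycoprotein, rose from 0.952 and 0.939 to 11.6 and 12.4 CPM (3.65, edgeR adjusted p = 2.8e-09), and Mmp10, Mmp12 (1.78) and Timp2 (1.09) rose. Timp3, an inhibitor of metalloproteases, fell from 4.05 and 3.15 to 0.926 and 0.308 (-2.51, edgeR adjusted p = 8.8e-05), and so did Plat, a plasminogen activator (-2.36), Lama1, Lamc1, Col6a1 (-2.79) and Col1a1 (-1.09). Timp3 differed from WT, where it changed by 0.24 (difference -2.75, edgeR adjusted p = 0.0018). Of the 31 genes, 5 were lower than in WT by that test (Timp3, Plat, Loxl2, Col4a2 and Col6a1; background 2.13%) and 1 higher, Spp1. Col1a1 was lost with single libraries left out (edgeR adjusted p up to 0.064). Without shEmpty replicate 2 just 1 was lower than in WT, and with a replicate block 9 were.

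Of 26 epithelial and adhesion genes 4 were up (15.4%, background 8.05%) and 3 down (11.5%, background 4.46%). Epcam, an adhesion molecule of epithelia, rose from 57.2 and 52.5 to 178 and 185 CPM (1.73, edgeR adjusted p = 1.2e-05), Esrp1, a splicing regulator of epithelia, by 2.51, and Cdh3 and Ocln rose. Icam1, a ligand of leukocyte integrins, fell from 100.0 and 94.3 to 22.1 and 24.6 (-2.06, edgeR adjusted p = 2e-09), as did the keratin Krt17 (-1.58) and Dsp. Of 25 Hippo and cytoskeleton genes 3 were up (12%) and 1 down (4%). Myl9 (2.77), Anxa3 (2.37) and Anxa2 (1.42) were up, and S100a6 was down (13.4 and 8.64 to 2.41 and 2.87, -2.06). Without shEmpty replicate 2 the Hippo list had 2 up and 2 down. Anxa2 rose more in WT (3.18, difference -1.76, edgeR adjusted p = 0.028), but with single libraries left out neither its rise (edgeR adjusted p up to 0.051) nor the difference (up to 0.09) held.

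Signalling lists held few calls. In the Nodal, Activin and BMP list 4 of 34 were down (11.8%, background 4.46%) and none up, and 1 was down without shEmpty replicate 2. Lefty2, a secreted Nodal inhibitor, read 214 and 233 CPM in shEmpty and 50.6 and 41.5 in shKap1 (-2.28, SE 0.703, edgeR adjusted p = 0.032), and Smad7, an inhibitor inside the cell, 52.8 and 54.8 and 27.1 and 24.8 (-1.05, SE 0.0804, edgeR adjusted p = 2.7e-08). Id4 (-1.19) was also called. With single libraries left out the edgeR adjusted p reached 0.16 for Lefty2 and 0.19 for Id4, and Smad7 reached -0.98, under 2-fold. Lefty1 read 37.6 and 39.9 and 17.0 and 11.8 and did not pass (edgeR adjusted p = 0.21).

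Of 33 Wnt genes 1 was up (3.03%, background 8.05%) and 2 down (6.06%, background 4.46%). The secreted protein Dkk3 (10.4 and 11.4 to 0.880 and 0.975 CPM, -3.55) and the secreted antagonist Sfrp1 (1144 and 1155 to 482 and 485, -1.25) fell and Dkk1 rose (2.06). Dkk1 differed from WT by 2.05 (edgeR adjusted p = 0.036, up to 0.16 with a library left out). It read 0.317 and 0.488 CPM in TET TKO shEmpty and 1.53 and 1.85 in shKap1, against 1.24 to 2.72 and 1.34 to 2.78 in WT, so here too the controls differed. Axin2, a feedback target of the pathway, changed by 0.14. Of 30 FGF and ERK genes the phosphatase Dusp5 rose (1.56) and Fgf10 fell (-1.94), 3.33% each way (background 8.05% up and 4.46% down). WT had 4 up and 10 down in that list, beside 2200 up and 1329 down among all tested genes. Etv4, an ETS factor downstream of ERK, changed by -0.18 against -2.96 in WT, a difference of 2.77 (edgeR adjusted p = 1.8e-06). The AP-1 genes Jun (0.88 against 2.15, difference -1.27) and Fosl2 (-0.61 against 1.14, difference -1.76) were lower than in WT by that test. With a replicate block 4 genes of the list were higher and 2 lower. Of 15 LIF and JAK-STAT genes 2 fell (13.3%, background 4.46%), both targets of STAT3. They were the kinase Pim1 (98.9 and 95.7 to 30.1 and 31.7, -1.65) and the feedback inhibitor Socs2 (72.8 and 75.6 to 28.1 and 29.8, -1.36).

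Casp8 and Cflar rose among the cell death genes, while most p53 targets were not called. Casp8, the initiator caspase of death receptors, read 2.19 and 1.73 CPM in shEmpty and 32.8 and 30.9 in shKap1 (4.02, SE 0.388, edgeR adjusted p = 4.8e-06). Its inhibitor Cflar, a neighbour on chromosome 1, read 1.52 and 1.54 and 15.6 and 14.6 (3.31, SE 0.187, edgeR adjusted p = 6.5e-10). Both rose in both libraries, and they were the calls among 29 apoptosis regulators. Of 32 p53 targets 3 were up (9.38%, background 8.05%) and 1 down (3.12%, background 4.46%). Pmaip1, the BH3 protein NOXA (34.3 and 29.4 to 122 and 121, 1.93), Ddit4l and Casp1 rose, the last from few reads, and Perp fell (-1.13). Ddit4l is also among the starts inside MT2_Mm. Cdkn1a, which codes for p21, read 167 and 171 and 159 and 153 (-0.11) and Mdm2 changed by 0.22, neither called.

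In the cell cycle list Ccnd2 rose from 1.55 and 1.31 to 12.2 and 13.1 CPM (3.14, edgeR adjusted p = 1.5e-08), Rb1 rose from 19.3 and 17.8 to 40.1 and 40.7 (1.12) and Ccnd3 fell from 172 and 172 to 83.5 and 88.3 (-1.0), 3 of 42 genes. The call of Ccnd3, which lies at the 2-fold threshold, was lost in 9 of 16 settings, among them DESeq2 and scaling by library size alone. Of 40 interferon and nucleic acid sensing genes 5 were up (12.5%, background 8.05%) and 1 down (2.5%, background 4.46%). Psmb8 (3.23), Oasl2 (2.47), Isg20 (1.85) and Oas2 (1.59) rose from low levels, as did Usp18, which had no read in shEmpty and 0.139 and 0.411 CPM in shKap1. Oas1a, a sensor of double-stranded RNA, fell from 31.2 and 28.7 to 6.53 and 6.01 (-2.25, edgeR adjusted p = 1.8e-05), less than in WT (-3.63, difference 1.37, edgeR adjusted p = 0.033). The call of Oasl2 was lost without single libraries (edgeR adjusted p up to 0.12), and so was the difference of Oas1a (up to 0.14).

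Genes of the repressive machinery other than Trim28 were seldom called. Among 32 genes of the KAP1 complex and H3K9 methylation Trim28 alone was called, with Setdb1 at 0.02 and Zfp57 at -0.12, although leaving out shEmpty replicate 2 brought 1 call up. Of 23 genes of DNA methylation and its removal Dnmt3a was called. Dnmt1 changed by -0.12, Dnmt3b by -0.36, Dnmt3l by -0.07 and Uhrf1, which brings DNMT1 to replicated DNA, by -0.60 (edgeR adjusted p = 7.6e-07), under 2-fold. Tet3 rose in WT (1.80) and was not called in TET TKO (0.50), a difference of -1.30 (edgeR adjusted p = 0.0012). None of 31 Polycomb genes was called in the fit of all libraries, with Ezh2 at -0.37.

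Clustered families split within themselves. Of 15 tested Prame and Rhox genes 4 rose and 4 fell (26.7% each, background 8.05% up and 4.46% down). Pramef6 went from 0.106 and 0.338 to 46.8 and 45.1 CPM (7.68, SE 0.333, edgeR adjusted p = 2.3e-11), and Pramel5 rose by 4.17. Pramel7, a factor that lowers UHRF1 in the inner cell mass, fell from 62.0 and 64.1 to 9.77 and 12.9 (-2.47, SE 0.305, edgeR adjusted p = 3e-05), with its neighbour Pramel6 (101 and 95.6 to 33.3 and 37.1, -1.49) and Pramef12 (-1.70). As paralogs, Pramel6 and Pramel7 can share reads. In WT Pramel7 changed by -6.11 (difference 3.63) and Pramel6 by -5.84 (difference 4.35), and 5 of 15 genes of the list were higher than in WT and 1 lower (5 and 2 with a replicate block, 4 and 2 without shEmpty replicate 2). Of 36 Hox genes 5 were up (13.9%, background 8.05%) and 1 down (2.78%, background 4.46%), 3 and 1 without shEmpty replicate 2. Those up were Hoxb1, Hoxb2, Hoxd1, Hoxd11 and Hoxd13, and Hoxc12 was down. Hoxb2 and Hoxd1 were lost without single libraries (edgeR adjusted p up to 0.11 and 0.13). Hoxd11 reached 3.24 and 3.85 CPM (2.21). In WT 10 Hox genes were up and 2 down, beside 2200 and 1329 among all tested genes. None of 6 tested protocadherins was called.

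Chromosome Y stood out when the risen genes were placed on chromosomes, a pattern chosen after the values were seen. Of its 11 tested genes 7 were called up (63.6%, background 8.05%), while the autosomes and X ran from 4.19% (chromosome 19) to 11.9% (chromosome 6). Usp9y, a deubiquitinase, read 0.176 and 0.263 CPM in shEmpty and 2.27 and 2.00 in shKap1 (3.26), Zfy1, a zinc finger factor, 1.16 and 1.28 and 8.52 and 8.42 (2.79), and Gm3376 0.106 and 0.0376 and 2.96 and 3.03 (5.27). Kdm5d, a histone demethylase, read 23.0 and 23.2 and 48.6 and 46.8 (1.04), and its rise was smaller than in WT (3.32, difference -2.27, edgeR adjusted p = 0.0075). Zfy2 (1.34), Gm4064 (3.61) and Ube1y1, with 9 reads, were the others. Ddx3y (0.11), Eif2s3y (-0.21) and Uty (0.11) were not called. Zfy1 and Zfy2 are close paralogs.

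Most genes that moved without TET enzymes moved in WT as well, on separate libraries. Of the 1635 risen genes 1122 were called up in WT, 68.6% of this list and 51.0% of the 2200 risen in WT. Of the 907 fallen 529 were called down in WT, 58.3% of this list and 39.8% of the 1329 of WT, and 25 genes were called in opposite directions. A test of the difference itself called 423 genes higher in TET TKO (2.08%) and 432 lower (2.13%). Without shEmpty replicate 2 those counts were 261 higher and 279 lower, without shKap1 replicate 1 they were 268 and 279, and without shKap1 replicate 2 they were 276 and 265. Leaving out replicate 1 of the WT and DNMT TKO groups, whose libraries stood apart, gave 735 and 610, a choice made after seeing the data. Genes called up in both genotypes had a median change of 2.99 in TET TKO and those called up there and not in WT 1.92.

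The genes with the largest differences moved in opposite directions, in 1 genotype, or in both to unequal extents. Arntl2, a partner of CLOCK, read 1.83 and 1.61 CPM in TET TKO shEmpty and 133 and 132 in shKap1, while the WT libraries ran over 0.854 to 1.24 and 1.99 to 2.24 (difference 5.28, edgeR adjusted p = 1e-09). Rassf4, a Ras-association protein, read 3.52 and 2.97 and 71.0 and 69.0, against 3.83 to 4.92 and 0.953 to 1.71 in WT (difference 6.23, edgeR adjusted p = 6.9e-07). Cldn9, a tight junction claudin, read 0.564 and 0.413 and 17.6 and 13.8, against 0.500 to 0.672 and 0.130 to 0.367 (difference 6.28, edgeR adjusted p = 2.1e-07). All 3 rose in TET TKO, whereas Rassf4 and Cldn9 fell in WT. In the DNMT TKO knockdown the log2 change was 5.47 for Rassf4, called up, and 0.42 for Cldn9 and 0.39 for Arntl2, not called.

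Aqp9, a channel for water and glycerol, likewise rose in TET TKO, from 7.90 and 7.81 to 30.8 and 28.3 CPM, and fell in WT, from 0.666 to 1.27 to 0.0433 to 0.107 (difference 5.71, edgeR adjusted p = 3.1e-07). In the other direction Ctsh, a lysosomal protease, stayed at 0.176 and 0.338 and 0.324 and 0.154 CPM in TET TKO, while in WT it went from 0.167 to 0.318 to 57.8 to 89.0 (difference -8.20, edgeR adjusted p = 6.2e-06). Ttc18 gave a difference of -5.50 from few TET TKO reads. Khdc1a (3.00 and 2.67 and 1.67 and 1.59) and the lincRNA 9330185C12Rik (2.01 and 1.95 and 2.96 and 2.82) had no read in any WT shEmpty library and were already expressed in TET TKO shEmpty. Their differences of -7.43 and -6.59 rest on WT groups at 0 and so depend on the prior count of the fit. The same holds for the difference of Gm8711, given below, whose TET TKO shEmpty group is at 0. In the DNMT TKO knockdown Ctsh changed by -0.46, 9330185C12Rik by 0.19 and Khdc1a by -0.24, none called, values nearer to those of TET TKO than of WT. Gm17514, with 6 reads in the TET TKO libraries, differed by -6.20, a call lost without shEmpty replicate 2 (edgeR adjusted p = 0.098), and Gm8711, silent in TET TKO shEmpty, by 6.25.

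**Figure D4:**
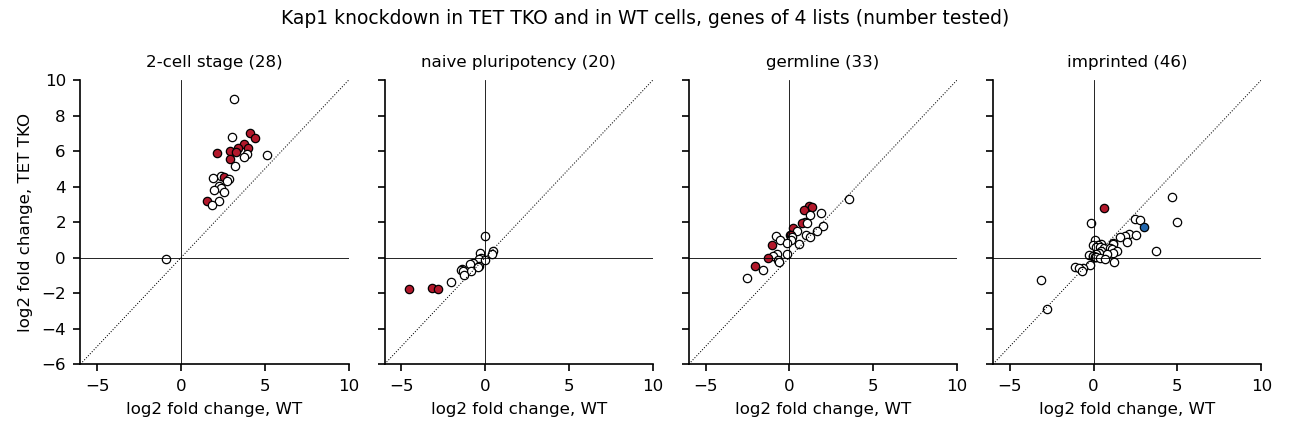
Log2 fold change on knockdown in TET TKO (vertical) against that in WT cells (horizontal) for the tested members of the 2-cell, naive, germline and imprinted lists, with the diagonal of equal change. Filled red points, called higher in TET TKO, number 11, 3, 10 and 1, and the blue points, called lower, are 1, in the imprinted panel.

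The starts of the risen genes lay near KAP1-dependent heterochromatin more often than others. Marks were compared as deposited region lists, all from WT cells: 14445 regions whose H3K9me3 depends on KAP1, 26553 KAP1 regions, 28066 regions of H3K4me3, found at active promoters, and 19316 of H3K27me3, the mark of Polycomb. Within 1000 bp of the start, KAP1-dependent H3K9me3 lay at 4.89% of the 1635 risen genes (80 genes), 0.221% of the fallen (2 genes) and 1.02% of all tested (208 genes). Read the other way, 38.5% of those 208 genes rose (background 8.05%) and 0.962% fell. KAP1 regions lay at 6.48% of the risen, 3.86% of the fallen and 4.4% of all tested genes, and 11.9% of those 894 genes rose. With a window of 5 kb KAP1-dependent H3K9me3 lay at 11.4% of the risen and 1.32% of the fallen, and over the whole gene body at 18.4% and 7.94%. These are shares, not tests, and most risen genes had neither mark near the start. The read filter counts the knockdown libraries, so genes silent in shEmpty could be tested because they rose. Shares of risen genes among those near a region or repeat are partly set by that.

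Among the genes named by rule, whose starts were looked up singly, Cml2, Peg10, H19 and Tdpoz3 had KAP1-dependent H3K9me3 that near, and Cml2 and Peg10 had a KAP1 region too. H3K4me3 lay at 44.8% of the risen, 62.1% of the fallen and 69.3% of all tested genes. H3K27me3 lay at 25.9%, 33.1% and 15.9%. Of the 91 tested genes with a MERVL or MT2_Mm element in the window 49.5% rose and 2.20% fell. Such an element was near 3.07% of the genes higher than in WT (13 genes), 0.231% of those lower (1 gene) and 0.448% of all tested. Over the whole gene body those shares were 9.93%, 6.94% and 4.23%. Starts inside a repeat of the LTR class, internal parts included, of any family and strand made up 5.57% of the risen, 1.32% of the fallen and 1.63% of all tested genes. KAP1-dependent H3K9me3 lay near 5.88% of the genes risen in both genotypes and 2.73% of those risen in TET TKO and not in WT.

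**Figure D5:**
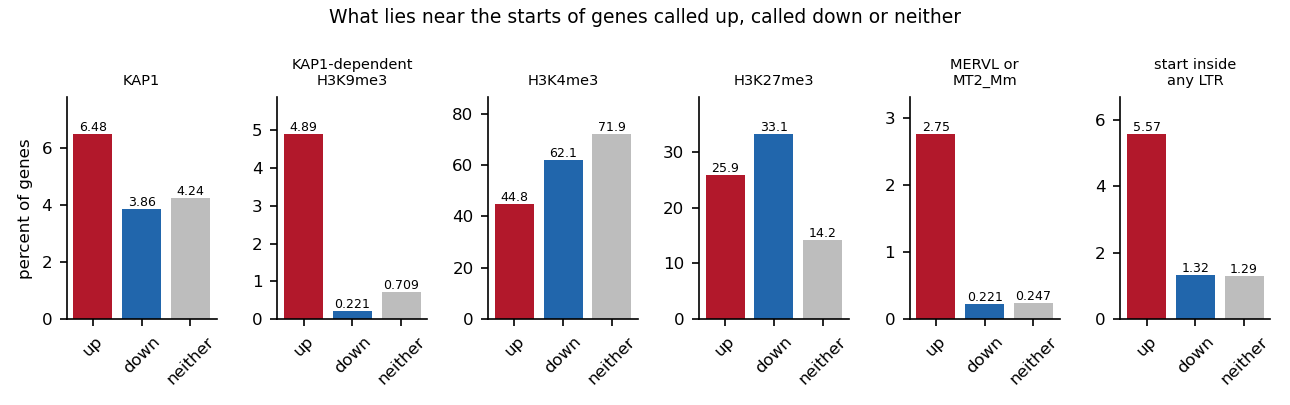
Percent of genes with a region or element within 1000 bp of the gene start, or with the start inside a repeat of the LTR class (internal parts included), for genes called up, called down and neither in TET TKO cells, in 6 panels with a vertical axis each. Bars of risen genes are the tallest in the panels of KAP1-dependent H3K9me3 (4.89%), KAP1 (6.48%) and MERVL or MT2_Mm (2.75%), and the shortest for H3K4me3 (44.8%).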

How the data were processed

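Per the labels, total RNA was made into stranded mRNA libraries of single-end reads, and the submitters' processing notes name HISAT2 2.0.1 and featureCounts 1.5.1 with build mm9. The deposited counts per gene, whose file headers name featureCounts 1.5.0-p1, strand setting 2 and a mapping quality minimum of 10, were used as they stand. The deposited region lists (SICER 1.1, MACS 1.4) and the repeat track, also from the authors, served for positions alone, without their counts. The reference has the authors' build, and 37205 of 37991 gene identifiers matched its annotation.

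Genes with at least 16 reads over all 16 RNA libraries were fitted in 6 groups with edgeR 4.0.16 (TMM, robust quasi-likelihood, no block), and p-values were adjusted over all 20321 genes by the Benjamini-Hochberg method. The difference to WT was a contrast of the same fit, and scripts were tested on simulated data. SE is the size of the log2 fold change divided by the square root of the F statistic of its quasi-likelihood test. It is thus worked back from the test and not estimated directly by the fit. With n = 2 per group the p-values rest on a spread shared over genes and groups.

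Members and lists were chosen with earlier results of these data known. Named were a fixed set of genes, the 10 largest rises and falls with at least 200 reads and groups apart, the 4 largest calls of each list with at least 50 reads, and the 5 largest differences to WT each way. Other names were added after their values were seen. Alternatives used limma 3.58.1, DESeq2 1.42.0, other scalings, filters, thresholds and libraries. In WT, shEmpty and shKap1 libraries of the same number deviated together from their group means (Pearson r 0.49, 0.32 and 0.32 for numbers 1 to 3), so a blocked value stands beside the printed list counts of differences to WT that it moved most. The DNMT TKO libraries entered the fit, and their knockdown is given for single genes, beside differences to WT, with no test against TET TKO. 5-hydroxymethylation and transposon counts were not analysed here. Some members of the lists are counted but not reported here by name.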

Additional observations from a re-analysis of the deposited data

Results flagged for a closer look

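Among the genes named by rule, the knockdown changed 36 to a different extent in TET TKO and in WT cells by the test of the difference itself (edgeR, Benjamini-Hochberg adjusted p below 0.05 and at least 2-fold). Values are the log2 change in TET TKO minus that in WT, and line and genotype cannot be told apart in any of them.

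Higher in TET TKO were Cldn9 (6.28), Gm8711 (6.25), Rassf4 (6.23), Aqp9 (5.71) and Arntl2 (5.28), then ENSMUSG00000093420 (3.67) and the Prame genes Pramel7 (3.63) and Pramef6 (2.84). Gm8711 had no read in TET TKO shEmpty, so its value and rank depend on the prior count of the fit. Genes of the 2-cell stage were Zfp352 (3.11), Zscan4b (2.86), Zscan4e (2.66), Zscan4c (2.64) and Tdpoz3 (2.36), and of naive pluripotency Tcl1 (2.74), Nr0b1 (1.42) and Prdm14 (1.04). Germline genes were Tex101 (1.83), Taf7l (1.77) and Sycp1 (1.47). Others were Myl9 (2.43), Nnat (2.13), Dkk1 (2.05), Sox3 (1.52), Oas1a (1.37), Esrp1 (1.08) and Ddit4l (1.02).

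Lower in TET TKO were Ctsh (-8.20), Khdc1a (-7.43), 9330185C12Rik (-6.59), Gm17514 (-6.20), Ttc18 (-5.50), Timp3 (-2.75), S100a6 (-2.43), Gata2 (-1.90), Anxa2 (-1.76) and Tet3 (-1.30). Khdc1a and 9330185C12Rik had no read in WT shEmpty, so their values depend on the prior count too.

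Leaving out a single library ended the call of 14 of the 36: Anxa2, Ddit4l, Dkk1, Esrp1, Gm17514, Myl9, Nr0b1, Oas1a, Prdm14, Sox3, Sycp1, Tex101, Zscan4c and Zscan4e. The highest edgeR adjusted p among them was 0.16, for Dkk1 and Tex101, and Ddit4l and Prdm14 lost theirs by falling under 2-fold (0.89 and 0.92).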

How the results depend on the processing

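No fold threshold gave 3108 genes up and 3070 down in TET TKO and a difference to WT for 942 higher and 1028 lower, and 4-fold gave 1028, 317, 169 and 167. Leaving out 1 library gave 1343 to 1412 up and 618 to 751 down, and for the difference 261 to 477 higher and 265 to 416 lower. Leaving out replicate 1 of the WT and DNMT TKO groups, chosen after seeing the data, gave 735 higher and 610 lower. DESeq2 (1480 and 757), limma-voom (1723 and 876) and the other scalings, filters and fits stayed within 1.5 times. The shares of called genes near a region moved with the window, at 5 kb and then over the gene body: for genes called up 11.4% and 18.4% (KAP1-dependent H3K9me3), 15.6% and 23.8% (KAP1), 48.1% and 50.6% (H3K4me3) and 29.8% and 33.4% (H3K27me3), and for genes called down 1.32% and 7.94%, 6.73% and 17.9%, 68.4% and 71.2%, and 37.6% and 41.7%.

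Within TET TKO the numbers do not pair the libraries (the correlation of the deviations was -0.03), and a replicate block gave 1708 up and 996 down, and 626 and 598 for the difference. Under it Lefty1 passed the test (-1.44) and Hox genes had 8 calls up, and no call of a named gene in TET TKO was lost. Uncalled genes near 0 changed sign. With upper quartile factors Cdx2 became -0.0087 and Setdb1 -0.0096, and by library size alone Ctsh became 0.0075 and Dnmt3l 0.0054. Leaving out 1 library gave -0.34 to 0.31 for Cdx2, -0.70 to 0.47 for Ctsh, -0.022 to 0.16 for Tet1 and -1.40 to 0.42 for Ttc18. The causes were not tested. Of the named genes' calls, leaving aside the 4-fold threshold, 22 of 114 in TET TKO and 14 of 36 of the difference were lost in at least 1 setting, 20 and 14 of them on leaving out a library. Of 863 tested genes with at most 4 reads over the 4 libraries 3 were called. Whether changes in the others could be detected at this depth was not tested.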
